A study of Mus musculus with 7 samples.

Results

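The genes described here carry the interferon response and the presentation of peptides on class I molecules of the major histocompatibility complex (MHC). They are 36 genes chosen by symbol from the 55536 genes of the deposited count table, and all 36 were found. RNA was sequenced from mouse alpha cells, which make glucagon in the pancreatic islets. They were sorted from islets on the red fluorescent protein tdTomato. All animals carried Gcg-iCre, a Cre recombinase driven by the glucagon gene, and the reporter Rosa26:tdTomato that Cre switches on. The 4 control libraries had the genotype Nkx2.2+/+ and the 3 knockout (KO) libraries the genotype Nkx2.2fl/fl, in which Cre removes the floxed part of Nkx2-2, a homeodomain transcription factor of islet cells. The strain was C57BL/6J per the series' design text. Age, sex and the number of animals per library are not in the labels, so p-values measure the spread between these libraries, which may be partly technical. Deletion is limited to cells that have made Cre from the glucagon gene, and sorted control cells carry Cre as well. The comparison asked how loss of Nkx2-2 in alpha cells in vivo changes gene expression, and the values below give the answer for this group of genes.

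Nearly every nucleated cell shows peptides from its own proteins on class I molecules. Proteasomes cut the proteins, the TAP transporter carries the peptides into the endoplasmic reticulum, and a loading complex places them on a heavy chain bound to beta-2 microglobulin. Interferons raise many of these steps: they bind receptors at the cell surface, activate STAT and IRF transcription factors and induce antiviral effectors. In pancreatic islets the pathway is known chiefly from type 1 diabetes, where islet cells show high class I and interferon-induced genes, and where variants of IFIH1, an RNA sensor, are linked to disease risk.

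Total counts per library ran from 45483504 to 72456557. The 36 genes together took 0.0945% to 0.1015% of them in controls and 0.107% to 0.116% in KO libraries, with no overlap. These shares depend on the total, which includes Gcg, and were not tested. Nkx2-2 itself, whose remaining exons can still be counted, had from 8596 to 12297 normalized counts (counts divided by a size factor for each library) in controls and from 7534 to 7758 in KO libraries. Counts per gene do not separate the floxed part from the rest, and how completely it was removed was not tested. The fold change of Nkx2-2 was -0.45 on the log2 scale (DESeq2 adjusted p 0.0218, edgeR adjusted p 0.152), and 2 of 7 fits that each left out 1 library called it. In the alpha cell marker list 7 of 9 genes, Gcg among them, were lower in KO and 0 higher. Control 4, the deepest library, had counts for 31024 genes against 23150 to 25873 in the others, and it held the lowest value of 14 of the 34 genes that received an adjusted p. Control 3 held the highest value of 14 of them. The KO library whose column number matches no sample title is called the unnumbered KO library.

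Interferon acts on many of these genes through a short DNA element upstream of their start sites, which is why a few of these stretches are shown before the values. The core searched was GAAA, any 2 bases and GAAA again, on both strands, in the 250 bases upstream of RefSeq start sites (GRCm38.p6). Of the 32 genes with a promoter in the RefSeq table, 11 held it, or 34.4%, against 3.46% of all 27025 genes with a promoter in that table. Capitals mark the matches, and every stretch reads 5′ to 3′ on the strand of its gene. Where the capitals read TTTC at either end, the core is on the other strand.
Isg15, chr4:156200860-156200911, minus strand: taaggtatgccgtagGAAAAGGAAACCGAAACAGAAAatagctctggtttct
Ifit1, chr19:34640770-34640828, plus strand: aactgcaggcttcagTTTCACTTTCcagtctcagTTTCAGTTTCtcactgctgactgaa
Ifit3, chr19:34583358-34583431, plus strand: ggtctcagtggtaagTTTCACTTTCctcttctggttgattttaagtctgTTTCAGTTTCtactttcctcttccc
Oas1a, chr5:120907526-120907560, minus strand: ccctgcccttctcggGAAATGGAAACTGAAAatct
Rsad2, chr12:26456548-26456587, minus strand: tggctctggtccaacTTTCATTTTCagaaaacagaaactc
B2m, chr2:122147533-122147572, plus strand: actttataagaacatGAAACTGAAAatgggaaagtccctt
The other genes with a match were Bst2, Gbp2, Gbp3, H2-T23 and Stat2. In Isg15 the capitals join 3 overlapping matches.

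Ifih1 had no match to this core in its upstream stretch. The stretch is printed whole, because Ifih1 is the only one of the 36 genes past the threshold. It also held no match to TNAAGTG, a core of the sites bound by Nkx2-type homeodomains, and so there are no capitals. In the same window 6 of the 32 genes of the group with a promoter held TNAAGTG, or 18.8%. The share over all genes with a promoter was 11.4%. The absence of these letters from the Ifih1 window says nothing of more distant sites.
Ifih1, chr2:62646256-62646505, minus strand: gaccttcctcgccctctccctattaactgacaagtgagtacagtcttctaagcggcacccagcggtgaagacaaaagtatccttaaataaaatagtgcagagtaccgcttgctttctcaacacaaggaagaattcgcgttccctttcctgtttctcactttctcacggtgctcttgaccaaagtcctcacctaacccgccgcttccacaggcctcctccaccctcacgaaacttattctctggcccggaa

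The 36 genes differed far more from each other than between the groups. Levels are compared between genes as normalized counts per kb of exon. In controls the class I heavy chains stood highest, with H2-D1 at 4209 ± 469 and H2-K1 at 3567 ± 368 (SD, n = 4). The loading factor Tapbp followed at 1693 ± 326, then the proteasome activator subunit Psme1 at 1387 ± 135 and the transcription factor Irf1 at 906 ± 141. The lowest were the effectors Isg15 at 8.13 ± 7.17 and Mx1 at 1.77 ± 2.83, and the class I regulator Nlrc5 at 4.50 ± 2.01. Levels in the KO libraries were of the same order: H2-D1 was at 4823 ± 870, Tapbp at 1959 ± 264, Irf1 at 934 ± 138 and Nlrc5 at 3.60 ± 2.32 (SD, n = 3). Some neighbours in this order lay within their spread, such as Irf1 and Psme2 (891 ± 119), while H2-K1 and Tapbp were clearly apart. The levels of H2-D1 and H2-K1 overlap across libraries, but H2-D1 was the higher of them within each of the 7 libraries.

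**Figure D1:**
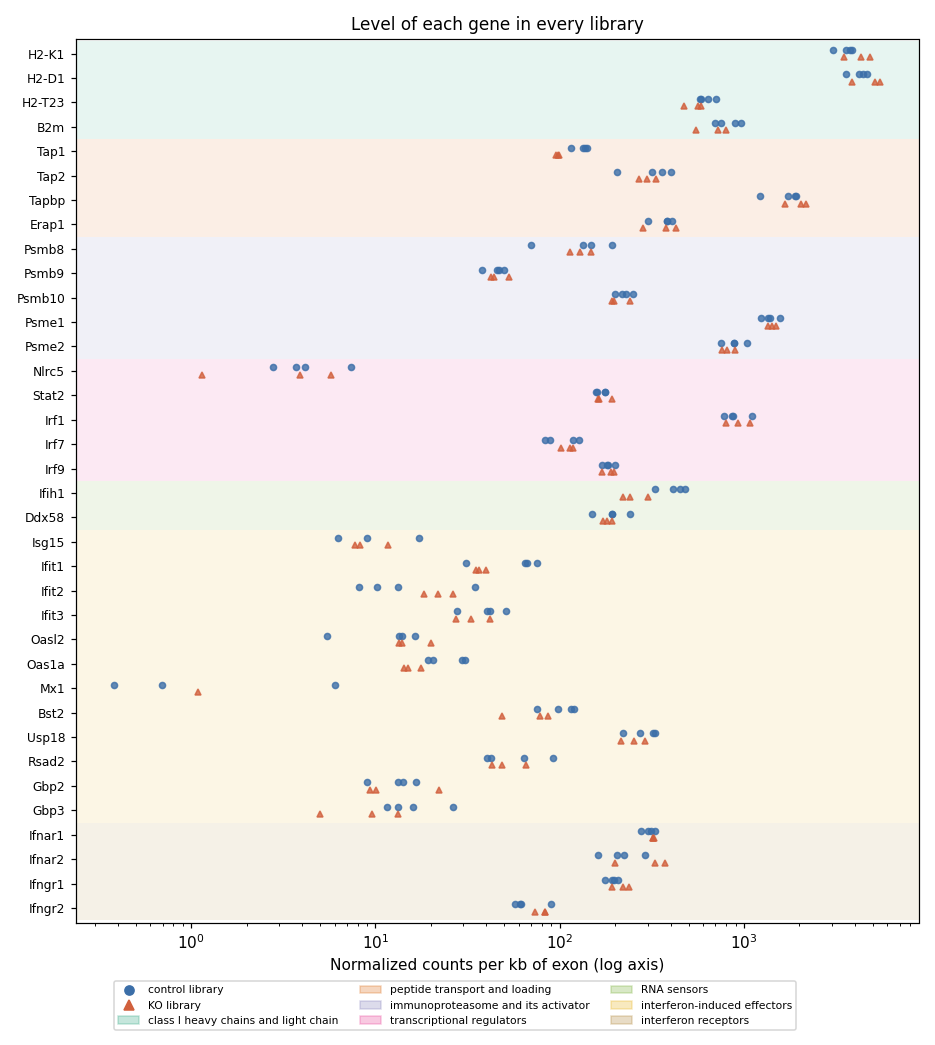
Level of each of the 36 genes in every library, in normalized counts per kb of exon on a log axis. Circles are the 4 control libraries and triangles the 3 KO libraries, shading marks the roles, and libraries at 0 (Isg15 in control 4; Mx1 in control 2, KO 1 and the unnumbered KO library) are not drawn. The heavy chains H2-K1 and H2-D1 stand highest and Mx1, Nlrc5 and Isg15 lowest in both groups.

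Across the group, 1 of the 36 genes was past the threshold of an adjusted p of 0.05 in DESeq2, the test the series' design text names: Ifih1, lower in KO. No gene of the group was called higher. DESeq2 gave an adjusted p to 34 of the 36, all but Isg15 and Mx1, whose counts were too low. The background in this comparison was 4.51% of all genes tested called in either direction, 2.27% lower and 2.24% higher. A single call among 34 is close to that background. The quasi-likelihood test of edgeR called 0 of the 34 genes it tested, against a background of 1.05%. At an unadjusted p under 0.05, DESeq2 and edgeR each had 2 of the genes, Ifih1 and Tap1, against 12.2% and 10.5% of all genes tested. The median log2 fold change (KO over control) was -0.04 over the 34 genes and 0.01 over all genes tested. There were 16 positive and 18 negative values, from -0.86 for Gbp3 to 0.44 for Ifnar2. The KO libraries lay below all controls for 3 of the 34 genes (Ifih1, Tap1 and Oas1a) and above all controls for 0, where the background was 5.94% below and 6.07% above.

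How narrowly the data limit a change depends on the level of each gene. For 18 of the 34 genes the 95% interval of the fold change lay within 1.5-fold in either direction, and for 24 within 2-fold. The median standard error (SE) was 0.197 on the log2 scale. The class I heavy chains, the proteasome activator, Irf1, Irf9, Stat2, Ddx58 and Ifnar1 are among the narrow intervals. The weakly counted effectors Gbp2, Gbp3, Ifit1, Ifit2, Ifit3, Oas1a, Oasl2 and Bst2 and the regulator Nlrc5 have intervals that reach past 2-fold. A change of that size in them is therefore not excluded at this depth and number of libraries. The interval of Ifih1, which was called, also reaches past 2-fold.

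**Figure D2:**
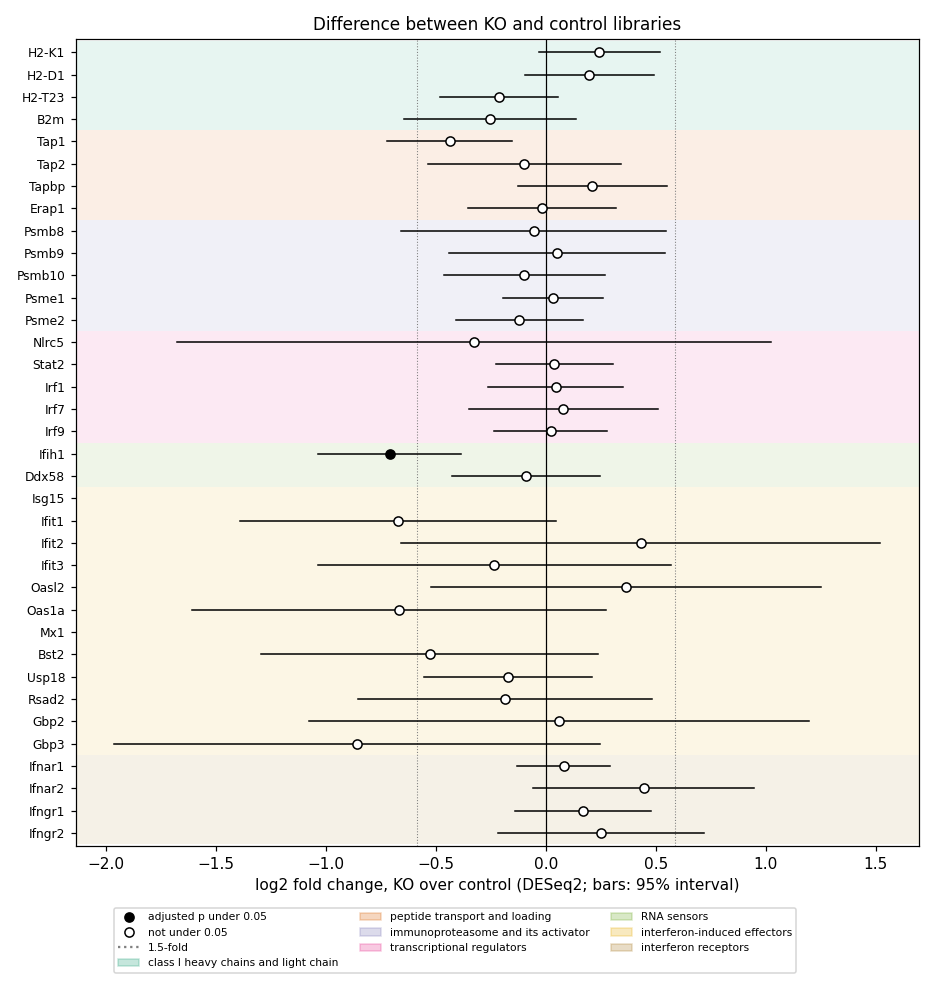
Log2 fold change, KO over control, of the 34 genes with an adjusted p (DESeq2), with 95% intervals, ordered by role, and with dotted lines at 1.5-fold. The filled point is Ifih1 at -0.71, and every other point is open; Isg15 and Mx1 received no adjusted p and have no point.

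The interferon receptors were all present. Ifnar1 and Ifnar2 are the chains of the receptor for type I interferon, and Ifngr1 and Ifngr2 those of the receptor for interferon gamma. Ifnar1 had 1949, 1796, 1650 and 1857 normalized counts in the 4 controls in order, against 1924, 1916 and 1917 in the KO group (KO 1, KO 2, unnumbered). The KO values lie inside the range of the controls, and the 95% interval of the log2 fold change ran from -0.13 to 0.29. Ifnar2 had 683, 968, 746 and 536 in controls, against 1092, 1235 and 667 in the KO group. Both numbered KO libraries exceed every control, the unnumbered one does not, and the log2 fold change of 0.44 (SE 0.26) did not pass the test (adjusted p 0.543). Ifngr1 (log2 fold change 0.17) and Ifngr2 (0.25) also did not pass, with adjusted p-values of 0.886 and 0.894. All 4 receptor values were positive and 0 were called.

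The interferon and cytokine genes listed as ligands, not all of which act on these receptors, were at or near the floor. Of 10 ligand genes listed, 7 had 0 counts in all 7 libraries: Ifnb1, Ifna2, Ifna4, Ifne, Ifng, Ifnl2 and Ifnl3. A count of 0 allows up to 3 counts, which is 0.0414 to 0.066 CPM (counts scaled to library totals) in these libraries. The bound is higher if read mates were counted separately. Ifnk had counts in control 4 alone, and Il6 and Tnf had at most 5.87 normalized counts in any library. None of the 10 listed genes reached an adjusted p.

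The transcription factors that act below the receptors lay close together in the groups. Stat2 and Irf9 are parts of the complex that binds the element shown above. Stat2 had 1045, 932, 941 and 1044 normalized counts in controls, against 954, 965 and 1133 in the KO group. Irf9 had 1080, 913, 975 and 989 in controls, against 918, 1027 and 1066 in the KO group. The groups overlap for both, and the log2 fold changes were 0.04 (SE 0.14) and 0.02 (SE 0.13), with intervals from -0.23 to 0.30 for Stat2 and from -0.24 to 0.28 for Irf9. Irf1, an early interferon gamma target, had 3416, 3113, 3468 and 4405 in controls, against 3668, 3193 and 4284 in the KO group, which cover the same range. Irf7, which amplifies the type I response, had a log2 difference of 0.08 (adjusted p 0.998). Nlrc5, the activator of class I genes, ran from 23.6 to 62.9 in controls and from 9.78 to 48.9 in KO libraries.

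Ifih1 encodes MDA5, a cytosolic sensor of long double-stranded RNA. Ifih1 (ENSMUSG00000026896, chromosome 2, 62595798 to 62646255, minus strand, GRCm38) had 3343, 2676, 3912 and 3681 normalized counts in controls 1 to 4. The KO group (KO 1, KO 2, unnumbered) had 1971, 2461 and 1807. The groups do not overlap, and the gap was narrow between control 2 and KO 2. The mean fell from 3403 ± 538 (SD, n = 4) to 2080 ± 340 (SD, n = 3), or 61.1% of the control level. On the log2 scale this is -0.71 (SE 0.17, 95% interval -1.04 to -0.38), and the adjusted p was 0.00113 in DESeq2 and 0.0764 in edgeR. With each of the 7 libraries left out in turn it lay between -0.85 and -0.62, and DESeq2 called it in all 7 of them, with adjusted p-values of up to 0.0393. In the 4 libraries that share a replicate number (controls 1 and 2, KO 1 and KO 2) the log2 fold change was -0.44 and the adjusted p 0.0999. No exon of an opposite-strand gene covers the exons of Ifih1 (0% of 8165 bases).

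The other RNA sensor, Ddx58, which encodes RIG-I and detects short RNA with a 5′ triphosphate, had 1352, 1688, 1350 and 1056 normalized counts in controls, against 1209, 1348 and 1275 in the KO group. Here the KO libraries lie inside the control range. Its log2 fold change was -0.09 (SE 0.17, adjusted p 0.988), and its interval (-0.43 to 0.24) overlaps that of Ifih1 slightly. The difference between the 2 sensors was not tested. Mavs, the adaptor that both sensors use, had a log2 difference of 0.18 (adjusted p 0.595) and is named after its values were seen.

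Ifih1 lies 112.1 kb from Gcg on the same strand, with Fap between them. The values of all genes with an adjusted p within 500 kb of Ifih1 are therefore set side by side, a comparison chosen after the values were seen. Gcg, which encodes glucagon and is also the gene that drives Cre in both groups, fell to 48.6% of the control level (log2 fold change -1.04, DESeq2 adjusted p 6.76e-10, edgeR 0.175). Dpp4, on the far side of Gcg, had 2824 ± 458 normalized counts in controls, against 2878 ± 161 in the KO group (log2 fold change 0.03). Gca, on the far side of Ifih1, had 800.5 ± 142 and 835.4 ± 141 (0.06). Fap, a fibroblast protease, had at most 37.2 normalized counts in any library and did not pass the test (1.36, adjusted p 0.557), nor did Slc4a10 (0.39, adjusted p 0.609).

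Kcnh7, a potassium channel gene next to Gca, had 72.6, 191, 68.0 and 275 normalized counts in controls, against 479, 706 and 647 in the KO group. It rose to 403% of the control level (log2 fold change 2.01, SE 0.44, DESeq2 adjusted p 0.000361, edgeR 0.0973). Of the 7 genes with an adjusted p in this stretch, Gcg and Ifih1 were thus called lower and Kcnh7 higher, with the uncalled Fap and Gca on either side of Ifih1. In edgeR none of the 3 was past the threshold.

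**Figure D3:**
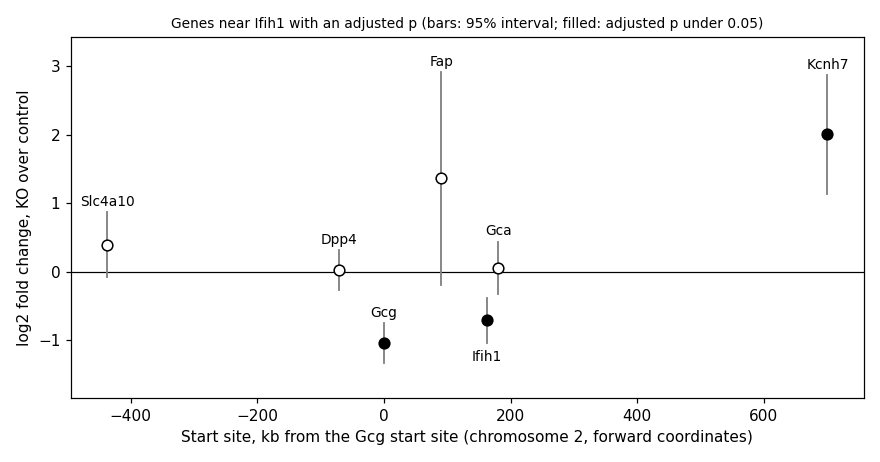
Log2 fold change, KO over control (DESeq2), of the 7 genes with an adjusted p around Ifih1, against the distance of their start sites from that of Gcg in kb. Bars are 95% intervals and filled points have an adjusted p under 0.05: Gcg (-1.04) and Ifih1 (-0.71) lie below 0 and Kcnh7 (2.01) above, while Dpp4 (0.03) and Gca (0.06) lie at 0.

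The class I heavy chains did not pass the test. H2-K1 and H2-D1 are the classical heavy chains of this strain. H2-K1 (chromosome 17, 33996017 to 34000347) had 10535, 11362, 11081 and 8943 normalized counts in controls, against 12698, 14212 and 10298 in the KO group. H2-D1 (chromosome 17, 35262730 to 35267499) had 10862, 11984, 11397 and 9178 in controls, against 13269, 14151 and 9898 in the KO group. In both genes KO 1 and KO 2 exceed every control and the unnumbered KO library does not, while control 4 is the lowest library. The log2 fold changes were 0.24 (SE 0.14, adjusted p 0.54) for H2-K1 and 0.20 (SE 0.15, adjusted p 0.775) for H2-D1. H2-K1 passed when libraries were scaled to their totals (0.34, adjusted p 0.0251) and without the 2 deepest libraries, control 4 and the unnumbered KO library (0.29, adjusted p 0.0402). The ratio of H2-D1 to H2-K1 per kb was between 1.1 and 1.2 in all 7 libraries, and since these genes are close paralogs their reads can be shared.

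H2-T23, a non-classical heavy chain that presents leader peptides, and B2m, the light chain, had negative values. H2-T23 had 1838, 1691, 2026 and 1659 normalized counts in controls, against 1684, 1623 and 1357 in the KO group, which is -0.21 on the log2 scale (adjusted p 0.636). B2m had 642, 767, 825 and 600 in controls, against 618, 691 and 471 in the KO group, which is -0.26 on the log2 scale (SE 0.20, adjusted p 0.789). The groups overlap for both. Set against each other per kb, H2-K1 exceeded B2m by 3.93 to 4.80 times in controls and by 6.01 to 6.40 times in KO libraries, with no overlap. That ratio was chosen after the values were seen and was not tested.

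Transport and loading gave 1 gene near the threshold. Tap1 encodes a chain of the peptide transporter. Tap1 (ENSMUSG00000037321, chromosome 17, 34187553 to 34197225) had 634, 765, 756 and 732 normalized counts in controls, against 537, 521 and 542 in the KO group. Every KO library was below every control, and the KO libraries were close to each other. The mean was 722 ± 60.1 (SD, n = 4) in controls, against 533 ± 11.03 (SD, n = 3) in the KO group, which is -0.44 on the log2 scale (SE 0.14). The adjusted p was 0.0541 in DESeq2 and 0.166 in edgeR, so the difference did not pass. It was 0.0312 when only genes with at least 10 counts in at least 3 libraries were tested, and between 0.065 and 0.339 in the fits without 1 library.

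Its partner chain Tap2 had 1361, 1195, 1528 and 769 normalized counts in controls, against 1126, 1255 and 1017 in the KO group. Control 4 is the lowest of the 7, and opposite-strand exons cover 18.5% of the exon length of Tap2. Its log2 fold change was -0.10 (SE 0.22). Tapbp, which encodes tapasin and bridges the transporter to the heavy chain, had a log2 difference of 0.21 (adjusted p 0.815) and shares 24.9% of its exon bases with genes on the opposite strand. Erap1, the peptidase that trims peptides in the endoplasmic reticulum, had 2672 ± 337 (SD, n = 4) normalized counts in controls, against 2641 ± 541 (SD, n = 3) in the KO group. Of the 4 genes, 0 passed.

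The immunoproteasome subunits Psmb8, Psmb9 and Psmb10 replace the standard catalytic subunits Psmb5, Psmb6 and Psmb7 when interferon is present. Per kb, the standard subunit exceeded its replacement in every library: by 4.21 to 9.16 times for Psmb5 over Psmb8, by 20.4 to 29.9 times for Psmb6 over Psmb9 and by 1.32 to 2.40 times for Psmb7 over Psmb10. The KO libraries lay inside the control range of the first 2 ratios, apart from Psmb5 over Psmb8 in the unnumbered KO library, and reached the highest value of the last. Psmb9 had 182, 138, 167 and 171 normalized counts in controls, against 155, 194 and 162 in the KO group. Psmb8 had 503, 451, 646 and 237 in controls, against 503, 437 and 384 in the KO group, with control 4 the lowest. Psmb10 was at 383 ± 34.2 and 358 ± 44.5. The activator subunits Psme1 (3063 ± 298 and 3133 ± 143) and Psme2 (1572 ± 210 and 1445 ± 123), which open the proteasome's gate, had log2 fold changes of 0.03 and -0.12. Of these 5 genes 0 were called, with log2 fold changes from -0.12 to 0.05.

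Most of the interferon-induced effectors, though not Usp18, were low in both groups, and 0 of 12 were called. Of the 10 with an adjusted p, 7 had negative and 3 positive values, with a median of -0.21. Ifit1, which binds viral RNA lacking a host cap mark, had 177, 172, 199 and 82.4 normalized counts in controls, against 93.9, 105 and 96.3 in the KO group. All KO libraries lie below controls 1 to 3 and above control 4. Its log2 fold change was -0.67 (SE 0.37, adjusted p 0.481), and without control 4 it was -0.89 (DESeq2 adjusted p 0.0413, edgeR 0.163). The groups overlap for its neighbours Ifit2 and Ifit3: Ifit2 ran from 31.8 to 136 in controls and from 72.4 to 103 in KO libraries, and Ifit3 from 48.4 to 89.6 and from 47.9 to 73.3. Reads of Ifit3 can be shared with its near copy Ifit3b.

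Oas1a, a synthase of the messenger that activates RNase L, had 38.6, 55.4, 57.5 and 36.1 normalized counts in controls, against 33.2, 26.9 and 28.2 in the KO group. The groups do not overlap, but the log2 fold change of -0.67 (SE 0.48) did not pass (adjusted p 0.742), and related Oas1 copies lie beside it. Oasl2, a relative of these synthases, had a log2 difference of 0.36 (adjusted p 0.959). Bst2, which tethers budding virus particles, ran from 67.9 to 109 in controls and from 43.7 to 78.2 in KO libraries (log2 fold change -0.53, adjusted p 0.757). The guanylate-binding proteins Gbp2 and Gbp3 had log2 fold changes of 0.06 (SE 0.58) and -0.86 (SE 0.56).

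Usp18, which removes Isg15 from proteins and damps the type I receptor, was the most abundant effector per kb, and its normalized counts were 798 ± 137 (SD, n = 4) in controls against 708 ± 107 (SD, n = 3) in the KO group. Bst2 followed per kb, at 102 ± 20.4 in controls. Rsad2, the antiviral enzyme viperin, had normalized counts of 258 ± 103 and 227 ± 50.4. Isg15, the ubiquitin-like modifier itself, had 6.81, 4.72, 13.1 and 0 normalized counts in controls, against 5.87, 6.20 and 8.89 in the KO group, so the enzyme that removes it stood far above it per kb in both groups. Mx1, a dynamin-like antiviral protein, had 22.7 in control 1 and at most 4.13 in every other library. C57BL/6 mice are known to carry a defective Mx1 allele.

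**Figure D4:**
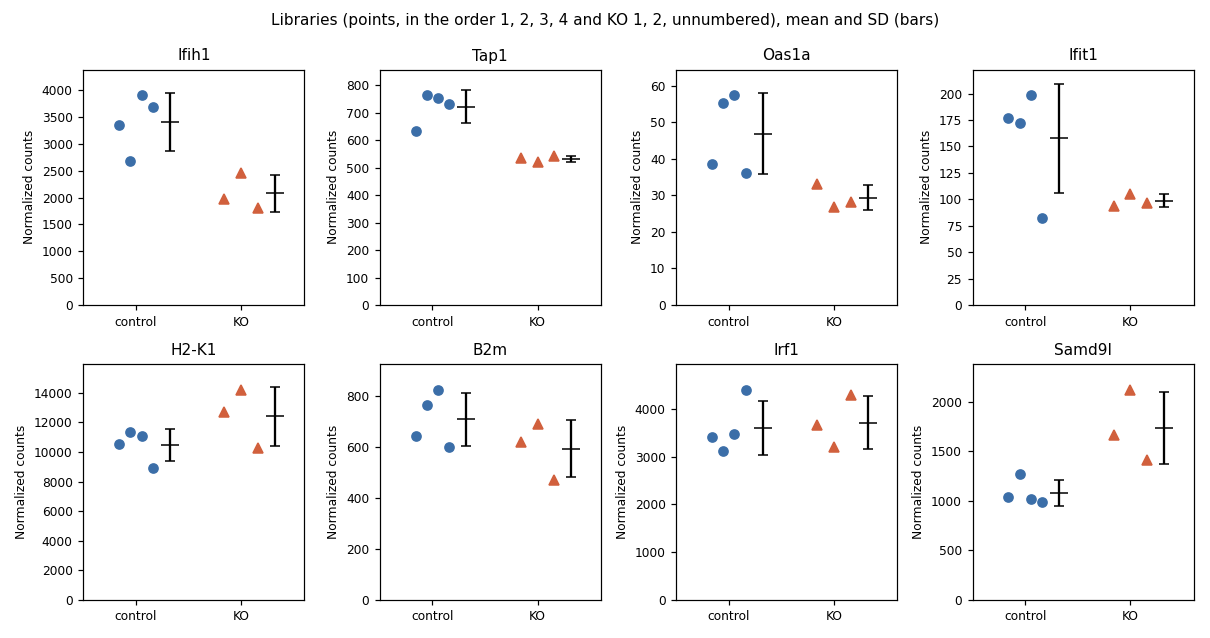
Normalized counts of 7 of the 36 genes and of Samd9l in each library, with 4 control libraries as circles and 3 KO libraries as triangles, and mean and SD as black bars; each vertical axis starts at 0. The groups are apart for Ifih1, Tap1, Oas1a and Samd9l, and they overlap for Ifit1 through control 4 and for H2-K1, B2m and Irf1.

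Grouped by the element in their upstream stretch, the 10 genes with the core and an adjusted p had a median log2 fold change of -0.245 (8 negative, 2 positive, 0 called). The 21 matched genes without it had a median of 0.05 (7 negative, 14 positive, 1 called, Ifih1). The 3 genes with an adjusted p but no promoter in the RefSeq table had a median of -0.172 (3 negative, 0 positive, 0 called). This split was made after the values were seen and has no test. The genes with the core include Gbp2, Gbp3 and Oas1a, whose standard errors are among the largest.

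**Figure D5:**
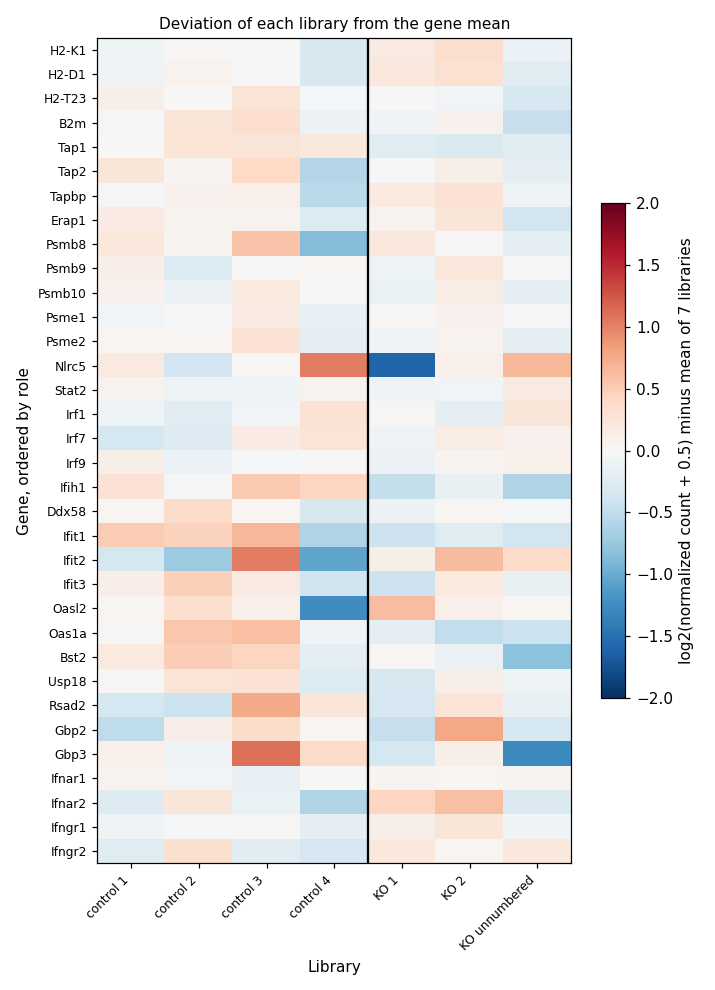
Deviation of each library from the mean of all 7, as log2 of the normalized count plus 0.5, for the 34 genes with an adjusted p, ordered by role; red is above and blue below the mean, and the line separates 4 control from 3 KO libraries. Ifih1 and Tap1 are blue in all KO libraries, and control 4 has the lowest value of 14 genes.

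Of 101 further genes of the pathway listed, 100 matched a symbol of the table and 71 received an adjusted p: 1 was called higher and 0 lower, with a median log2 fold change of -0.01. The gene called was Samd9l, an interferon-induced gene that restricts virus replication and cell growth. Samd9l (ENSMUSG00000047735, chromosome 6, 3372257 to 3399572) had 1044, 1271, 1014 and 989 normalized counts in controls, against 1668, 2123 and 1411 in the KO group. Every KO library was above every control. On the log2 scale the rise was 0.68 (SE 0.18), and the adjusted p was 0.0041 in DESeq2 and 0.0877 in edgeR. Without KO 2 the log2 fold change was 0.51 and the adjusted p 0.106, and in the other 6 fits without 1 library it was called.

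By group of the wider lists, 0 of 7 other class I genes, 0 of 10 other loading and proteasome genes, 0 of 17 other signalling genes and 0 of 8 other sensing genes with an adjusted p were called. Among 29 other interferon-induced genes Samd9l was the 1 call, with 12 positive and 17 negative values. At an unadjusted p under 0.05 in DESeq2 there were 8 of the 71 genes, no larger a share than the 12.2% of all genes tested. Among these, chosen after their values were seen, were the kinase gene Jak1 (log2 fold change 0.38, adjusted p 0.136) and the GTPase gene Igtp (-0.66, adjusted p 0.124). Stat3 (-0.20, adjusted p 0.236) and Parp14 (-0.29, adjusted p 0.324) were also among them, both lower in KO. The chaperones of class I loading Pdia3 (0.44, adjusted p 0.151) and Calr (0.36, adjusted p 0.271), which also fold glycoproteins at large, did not pass either. Scaling to library totals, which raised the median of all genes by 0.101, brought Jak1, Pdia3, Calr and Lnpep past the threshold, and leaving out the 2 deepest libraries brought Jak1, Pdia3 and Calr past it.

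Other cells of the pancreas also express class I and interferon-induced genes, so their markers are given beside these results. The class II antigen presentation genes, markers of dendritic cells, macrophages and B cells, had a summed level of 166 to 307 normalized counts in controls and 482 to 544 in KO libraries. Ciita, their activator, made up 133 of the 166 in control 4 and at most 2.36 in the other controls. Without Ciita the sum was 236, 228, 307 and 33.2 in controls 1 to 4 and 470.3 to 529.7 in the KO group. Cd74, the class II invariant chain, had 113, 112, 123 and 10.1 in controls, against 247, 287 and 250 in the KO group, and H2-Eb1 was also above all controls in every KO library. None of the 4 class II genes with an adjusted p was called with all libraries. Without control 4, Cd74 passed (log2 fold change 1.17, adjusted p 0.000355 in DESeq2 and 0.0429 in edgeR). The leukocyte list of 14 genes had a summed level of 968 to 1566 in controls and 771 to 821 in KO libraries, of which C1qa, a complement subunit, was the largest part. C1qa was lower (-0.82, adjusted p 0.0113 in DESeq2 and 0.14 in edgeR, called in 4 of 7 fits without 1 library). The other 13 genes summed to 124 to 261.5 in controls and 157 to 356 in the KO group, which overlap. The partner subunits C1qb and C1qc had at most 23.5 in controls and from 8.26 to 48.9 in the KO group, and received no adjusted p. Ptprc, the defining surface marker of leukocytes, had 0 in controls 1 and 2, 20.9 and 2.89 in controls 3 and 4, and 1.956, 10.3 and 31.1 in KO libraries.

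The endothelial list summed to 480 to 795 normalized counts in controls and 530 to 1397 in KO libraries, and 0 of its 8 genes with an adjusted p were called. Of the delta cell markers 4 of 4 had positive values, and Rbp4 was called (1.55, adjusted p 0.0127 in DESeq2 and 0.0761 in edgeR). Of the duct markers 5 of 5 were positive, and Spp1 was called (0.65, adjusted p 0.0246 in DESeq2 and 0.146 in edgeR). The beta cell markers (6 of 6) and the mesenchymal markers with an adjusted p (5 of 5) were positive with 0 called, and 5 of 6 acinar markers were negative with 0 called. The beta cell list summed to 295334 to 606344 normalized counts in controls and 431289 to 831251 in KO libraries. For the delta cell list the sums were 196263 to 398978 and 355301 to 632402, and for the alpha cell list 6480300 to 8470110 and 2973120 to 4291690. The beta and delta cell sums lay far above those of the leukocyte, class II and endothelial lists. In these bulk libraries, fewer cells of a type and less RNA per cell cannot be told apart. The part of these cells in the class I and interferon values was not tested.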

How the data were processed

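RNA came from sorted alpha cells, and libraries were made with a stranded total RNA kit for low input, per the labels' protocols. The authors deposited whole-number counts per gene for 7 libraries. FastQC, STAR, featureCounts, DESeq2 and the build mm10 are named in the submitters' processing notes, without settings. The labels call the RNA polyA in one field and ribosomal-depleted in another. The strand setting is not given in the sources used here. Of the 7 columns, 6 match a sample title each, and 1 KO column carries a number (4) of no KO title and stands as an unnumbered KO library. From 84.4% to 88.9% of counts from 1 to 10 were even, so read mates may be counted separately and counting intervals are too narrow.

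KO and control were compared by the Wald test of DESeq2 (version 1.42.0, R 4.3.3; its own size factors, filters at their defaults with a target of 0.05, genes without counts removed), fitted on all genes with Benjamini-Hochberg adjustment. edgeR 4.0.16 (quasi-likelihood test, TMM) was the first alternative. Intervals are the log2 fold change ± 1.96 SE. No library pair of a group agreed within sampling noise (chi-square per degree of freedom of at least 38.6). Positions and exon lengths are from GENCODE M21 (GRCm38) and promoters from RefSeq (GRCm38.p6). The tests were checked on simulated counts.

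The genes and lists were chosen with earlier results of these data known. All 36 genes are named, and of the wider lists those past the threshold and the ligands; 1 further gene of the rule is not reported here. The values of others are named as chosen after they were seen.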

Additional observations from a re-analysis of the deposited data

Results flagged for a closer look

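In 4 of 59 genes examined, 1 control library lay far from the remaining 3 (gap over range above the 95% critical value of Dixon). Chance alone would set about 2.95 of the 59 apart, or 1 in 20. Mx1 had 22.7 normalized counts in control 1 against 0 to 2.61 in the other controls. Ifngr2 had 338.5 in control 2 against 214.6 to 231.4. Cd74 had 10.1 in control 4 against 112 to 123, and Lnpep, the aminopeptidase that trims peptides in endosomes, had 8263 in control 4 against 7756 to 7839. The KO group, with 3 libraries, was not examined in this way.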

How the results depend on the processing

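Ifih1 was lower in KO in all 17 alternatives, and DESeq2 called it in 13 of them. It was not called by edgeR (adjusted p 0.0764), by edgeR without control 4 (0.0899), or in the 4 libraries with shared numbers, with (0.169) or without (0.0999) the block. The last of these and edgeR without control 4 were chosen after seeing the data. The number of the 36 genes called was 1 in the main test and 0 in those 4 alternatives. It was 2 with library totals (Ifih1 and H2-K1), 2 with the stricter filter on low counts (Ifih1 and Tap1), 3 without the 2 deepest libraries (Ifih1, Ifit1 and H2-K1) and 1 to 2 in the fits without 1 library. The number of wider pathway genes called was 1 in the main test, 0 in edgeR with all libraries or without control 4, 5 with library totals, 4 without the 2 deepest libraries, 3 with the block, 2 in the same 4 libraries without it, and 0 to 2 in the fits without 1 library. Over all genes, DESeq2 called 792, edgeR 203, edgeR without control 4 249, and the fits without 1 library 430 (without KO 1) to 910. The median of the genes lay between -0.14 and 0.07 in all alternatives. Scaling to library totals shifted all genes by 0.101 (median) and the 36 genes by 0.102, and calls were then 684 higher and 297 lower, against 394 and 398. Of the 36 genes, 14 changed sign in at least 1 alternative that gave them an adjusted p. All 14 were uncalled with all 7 libraries, with log2 fold changes of at most 0.325 in size. Isg15 and Mx1, near the floor, also changed sign in the fits without 1 library, which gave them no adjusted p. Isg15 ran from -0.22 to 0.885 there (0.21 with all libraries), and Mx1 from -5.42 to 0.0114 (-2.31 with all libraries). For the replicate block, only numbers 1 and 2 occur in the sample titles of both groups, and the labels do not say what they mark. The count columns also carry a 4 in both groups, which was not used as a pair because no KO title has that number. Libraries with the same number deviated together with r = 0.172 and 0.236 across genes. That was less than control 3 and KO 2 (0.353), whose numbers differ. It was also less than the 2 deepest libraries, control 4 and the unnumbered KO library (0.446). The block gave 580 calls over all genes and a median of -0.0046 for the 36. Depth limits the genes under about 100 normalized counts, whose intervals are widest.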
